A study of Mus musculus with 282 samples.

Results

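Time of day was followed in the livers of male wild-type C57BL/6J mice that were fed arrhythmically. The libraries were all those labelled wild type, arrhythmically fed and control (not injected), 18 of the 282 in the series. At each of zeitgeber times (ZT, hours after lights on) 2, 6, 10, 14, 18 and 22 h there were 3 libraries, described as biological replicates. The night group held the 9 libraries of ZT 14, 18 and 22, and the day group held the 9 of ZT 2, 6 and 10. Mice were housed singly under equal light and dark phases with free access to water, and RNA was taken from the lateral lobe of frozen liver. The sources used here give neither the age of the mice nor how the arrhythmic schedule delivered food. Uninjected wild-type males fed only at night (18 libraries) or ad libitum (18) served to show where a rhythm differed between feeding patterns. A further 18 libraries each came from arrhythmically fed wild-type males injected with the mTOR inhibitor AZD8055 at dawn or at dusk, and from night-fed males lacking the clock gene Bmal1 in the whole body.

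The liver clock is a transcriptional loop. BMAL1 (gene symbol Arntl) and CLOCK activate Per, Cry, Nr1d1, Nr1d2 and Dbp through E-boxes, the PER and CRY proteins then repress that activation, and the REV-ERB receptors NR1D1 and NR1D2 repress Arntl while ROR receptors activate it. Timing also reaches hepatocytes from outside through feeding, through body temperature, which is higher during the active night of a mouse and acts on heat shock and cold-inducible genes, and through glucocorticoids, which are secreted with a daily rhythm.

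Libraries held 7.12 to 11.8 M reads (M, 10 to the power of 6) at night and 7.09 to 11.4 M by day, counted from 3' ends of polyadenylated RNA, and pairs of libraries had correlations of 0.958 to 0.987. Levels are given in RPM (reads per M reads). Hepatocyte markers (Alb, Apoa1, Ttr, Cps1 and Serpina1c) summed to 61402 to 99994 RPM at night and 73031 to 105747 RPM by day, and none of the 5 passed a test. Summed markers of Kupffer cells and macrophages were 227 to 342 RPM at night and 217 to 371 RPM by day. Among markers of the other cell types 1 was called between night and day (Sox9, a bile duct gene, higher at night), and Col1a1, Sox9, S100a8 and S100a9 had a called rhythm. In bulk liver, fewer cells of a type and less RNA per cell cannot be told apart. Night libraries at ZT 18 replicate 3 and ZT 22 replicate 1 stood apart in a pair of hepatocyte products that differ between the sexes in mice. Cyp2a4 stood at 157.9 and 116.0 RPM in them, against 2.66 to 38.8 RPM in the other 16 libraries, and the major urinary protein genes summed to 13485 and 12002 RPM, against 14359 to 43465 RPM in those 16. ZT 22 replicate 2 had the largest residual spread (SD of 0.41 on the log2 scale, against 0.21 to 0.36 in the other 17) and 17.3 RPM of the fasting-induced kinase gene Pdk4, against 0.105 to 6.37 RPM. All 3 are night libraries, so the counts below are also given without them where that moves them by over 1.5 times. The fit without them keeps only replicate 3 at ZT 22, and replicates 1 and 2 at ZT 18. The part of these 3 libraries in the results was not tested.

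Night and day differed in few genes, and most daily variation was seen as a 24 h rhythm. The difference between night and day passed the threshold in 290 of 12374 genes tested (2.34%; limma, adjusted p under 0.05), of which 159 (1.28%) were higher and 131 (1.06%) lower at night, 79 and 43 of them by at least 1.5-fold. Without the 3 libraries above 153 genes passed, 124 of them shared. Leaving out 1 library also lowered the count by over 1.5 times in 3 cases, to 192 without ZT 2 replicate 2, 193 without ZT 10 replicate 3 and 171 without ZT 14 replicate 3. A 24 h cosine was called in 994 genes (8.03%), with 766 spanning 1.5-fold or more between trough and peak, 342 spanning 2-fold or more and 51 spanning 4-fold or more. Both tests called 280 genes, 714 had a rhythm alone and 10 had a night minus day difference alone. The highest and lowest libraries of night and day did not overlap in 21 called genes (0.170%), 13 above and 8 below. A difference among any of the 6 times was called in 472 genes (3.81%). For a 12 h component limma called 0 genes (0.00%), with 914 at an unadjusted p under 0.05, and edgeR called 0 and DESeq2 13.

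Peaks gathered around the changes of light. Of the 994 rhythmic genes 239 peaked within 2 h of dusk (ZT 12) and 215 within 2 h of dawn, against 222 within 2 h of midday or midnight. The comparison of night with day called 169 of those 222 genes, but 11 of the 239 around dusk and 6 of the 215 around dawn. A curve centred on the change of light is nearly as high in its last hours of day as in its first hours of night. Usp2 among clock outputs and Upp2 among metabolic genes were accordingly called in the rhythm test and not between night and day.

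**Figure D1:**
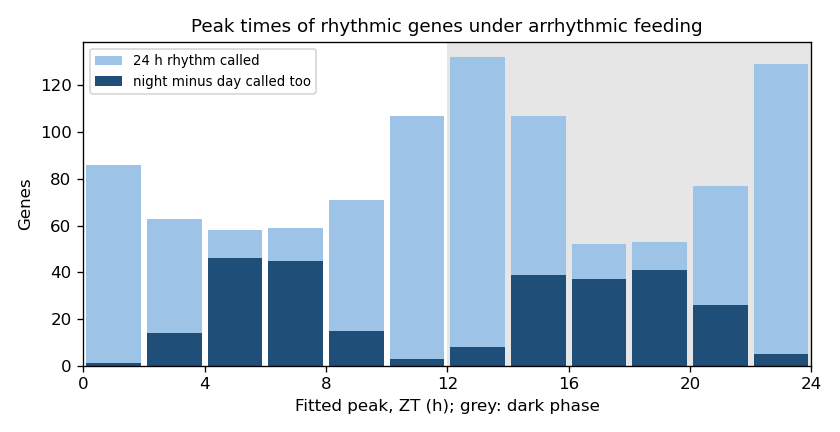
Number of rhythmic genes by fitted peak (x axis, ZT in hours in 2 h bins; y axis, genes), with those also called between night and day in dark blue and the dark phase in grey. The highest bins are those of 132 genes at ZT 12 to 14 and 129 at ZT 22 to 24, where 8 and 5 were also called between night and day.

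Most clock genes had rhythms under arrhythmic feeding. A rhythm was called in 24 of 27 clock genes and outputs, against 8.03% of all genes tested, and their median amplitude (log2 units by which the fitted peak exceeds the mean) was 1.17, against 0.15 over all genes. Of the 27, 8 were higher and 7 lower at night, against 1.28% and 1.06% of all genes (6 and 6 without the 3 libraries that stand apart, Tef, Tspan4 and Por losing the call). In 3 of the 27, Cry1 and Nr1d1 among them, night and day did not overlap, against 0.170% of all genes. The 3 without a called rhythm were the ROR receptor gene Rora (amplitude 0.19 ± 0.07, SE, n = 18), the repressor Bhlhe40 (0.33 ± 0.14) and the output factor Hlf (0.22 ± 0.10). Sequence of 4 clock promoters is shown because their motifs stand for the 3 control elements of the loop and their genes peaked at different phases, Ciart and Per3 together. The 300 bases run from 250 before to 50 after the RefSeq start (GRCm38.p6), 5′ to 3′ on the gene's strand, with the motif in capitals. For Ciart (chr3:95882179-95882478, minus strand) and Per1 (chr11:69098699-69098998, plus strand) it is the E-box CACGTG, for Per3 (chr4:151044616-151044915, minus strand) the D-box TTATGTAA bound by DBP, and for Arntl (chr7:113207261-113207560, plus strand) the ROR element (AGGTCA with AANT directly before it) bound by ROR and REV-ERB receptors.
Ciart: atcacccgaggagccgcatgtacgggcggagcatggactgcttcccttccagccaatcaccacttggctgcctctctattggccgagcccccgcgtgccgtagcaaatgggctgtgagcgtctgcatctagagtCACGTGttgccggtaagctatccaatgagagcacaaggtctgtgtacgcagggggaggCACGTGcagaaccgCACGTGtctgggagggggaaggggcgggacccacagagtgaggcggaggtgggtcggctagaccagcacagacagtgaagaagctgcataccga
Per1: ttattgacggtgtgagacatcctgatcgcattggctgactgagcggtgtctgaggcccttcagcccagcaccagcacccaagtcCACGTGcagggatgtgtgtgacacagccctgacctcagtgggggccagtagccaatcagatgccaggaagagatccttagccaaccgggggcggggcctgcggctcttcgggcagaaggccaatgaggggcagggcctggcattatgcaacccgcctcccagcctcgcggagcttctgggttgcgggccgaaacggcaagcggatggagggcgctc
Per3: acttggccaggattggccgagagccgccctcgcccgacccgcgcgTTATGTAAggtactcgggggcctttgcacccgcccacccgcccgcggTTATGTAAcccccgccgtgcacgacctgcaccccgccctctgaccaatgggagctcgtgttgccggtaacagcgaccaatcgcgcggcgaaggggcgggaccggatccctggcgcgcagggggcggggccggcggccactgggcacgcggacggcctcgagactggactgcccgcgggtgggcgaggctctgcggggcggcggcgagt
Arntl: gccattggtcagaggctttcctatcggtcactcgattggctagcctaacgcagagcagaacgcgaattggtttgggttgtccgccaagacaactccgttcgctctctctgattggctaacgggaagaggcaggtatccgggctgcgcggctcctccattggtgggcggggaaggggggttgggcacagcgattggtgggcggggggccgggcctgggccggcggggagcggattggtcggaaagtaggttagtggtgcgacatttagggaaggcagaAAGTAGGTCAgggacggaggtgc

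Ciart holds 3 E-boxes, Per1 holds 1, Per3 holds 2 D-boxes and Arntl holds 1 ROR element, each searched on both strands. Over the 32851 promoters in the RefSeq table the shares with at least 1 match are 7.15% for the E-box, 0.938% for the D-box and 0.219% for the ROR element. Of the 27 clock genes 22 had a promoter in the table, 7 with an E-box, 1 with a D-box and 1 with a ROR element. Among rhythmic genes by peak time, an E-box lay in 5.45% of 110 promoters for peaks at ZT 0 to 4, 20.2% of 99 at ZT 4 to 8, 16.8% of 137 at ZT 8 to 12, 14.1% of 177 at ZT 12 to 16, 8.75% of 80 at ZT 16 to 20 and 9.33% of 150 at ZT 20 to 24, against 11.8% of 8986 tested genes with a promoter. The D-box matched 0 of 110, 0 of 99, 6 of 137, 3 of 177, 2 of 80 and 0 of 150 promoters in the same 6 bins, against 0.690% of those of tested genes. These are counts of letters in a window and not of bound sites.

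The activating side peaked late in the night. Arntl (chromosome 7, 113207465 to 113314126) had 14.9, 9.90 and 7.54 RPM at ZT 2, then 1.25, 1.78 and 0.708 at ZT 6, 1.74, 1.03 and 1.02 at ZT 10, 7.31, 5.49 and 7.94 at ZT 14, 8.58, 14.4 and 21.2 at ZT 18, and 16, 17.2 and 12.7 at ZT 22. Every library at ZT 18 and ZT 22 was above every library at ZT 6 and ZT 10, while ZT 2 reached into the night range. The fitted curve peaked at ZT 20.4 and its amplitude was 1.82 ± 0.13 (limma adjusted p = 4.82e-07), and the night minus day log2 difference was 1.90 ± 0.18 (limma adjusted p = 1.17e-05). Clock itself moved less, with an amplitude of 0.53 ± 0.05 and a peak at ZT 22.7, and its night minus day call was lost in 11 of 18 fits that left out 1 library. Npas2, a close relative of Clock, peaked at ZT 23.6 with an amplitude of 1.28 ± 0.12 from a mean of only 0.796 RPM, so that it was at 0 in some libraries of ZT 10 and ZT 14.

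Among the repressors the REV-ERB genes peaked by day. Nr1d1 (chromosome 11, 98767932 to 98775333) had 18.4, 30.3 and 31.4 RPM at ZT 2, 24.8, 30.7 and 36.7 at ZT 6, 6.47, 13.1 and 14.1 at ZT 10, 4.79, 4.26 and 3.86 at ZT 14, 0.409, 0.511 and 0.426 at ZT 18, and 1.40, 2.66 and 3.85 at ZT 22. The highest night library lay below the lowest day library, and the trough at ZT 18 came as Arntl climbed. Its night minus day difference of -3.13 ± 0.17 (limma adjusted p = 1.03e-08) was the lowest of all genes tested, and the fitted curve spanned 28.2-fold around a peak at ZT 5.74. Nr1d2 followed at ZT 8.98 with an amplitude of 1.18 ± 0.10 and was lower at night by a log2 difference of -1.19 ± 0.15. Nr1d1 overlaps Thra on the opposite strand at its 3' end, as Dbp overlaps Sphk2 and Usp2 a gene model, and whether strand was used in counting is not given in the sources used here.

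Per and Cry genes came in sequence. Per3 peaked at ZT 10.1 with an amplitude of 1.75 ± 0.14 (limma adjusted p = 9.51e-07), and Ciart, another repressor of BMAL1 and CLOCK, at ZT 10.2 with 1.77 ± 0.13. Per1 had 6.72, 11.2 and 11.8 RPM at ZT 10 and 6.68, 13.9 and 10.2 RPM at ZT 14, against 1.16, 0.707 and 2.81 RPM at ZT 2 and 1.99, 3.99 and 0.879 RPM at ZT 22. Per1 and Per2 therefore peaked at dusk, at ZT 12.6 (amplitude 1.31 ± 0.19) and ZT 13.1 (1.17 ± 0.15), and neither passed the night and day comparison (limma adjusted p = 0.69 and 0.295). Cry1 was the last, at ZT 18.1, with 22.1, 25.7 and 40.5 RPM as lowest, median and highest at night, against 4.69, 8.13 and 13.9 RPM by day. Its night minus day difference was 1.76 ± 0.13 (limma adjusted p = 6.3e-07), while Cry2 had the small amplitude of 0.39 ± 0.07. Nfil3, which represses the D-box targets of DBP, was higher at night by 0.91 ± 0.15 and peaked at ZT 20.4, and Bhlhe41 was lower by -1.65 ± 0.25 and peaked at ZT 6.6.

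**Figure D2:**
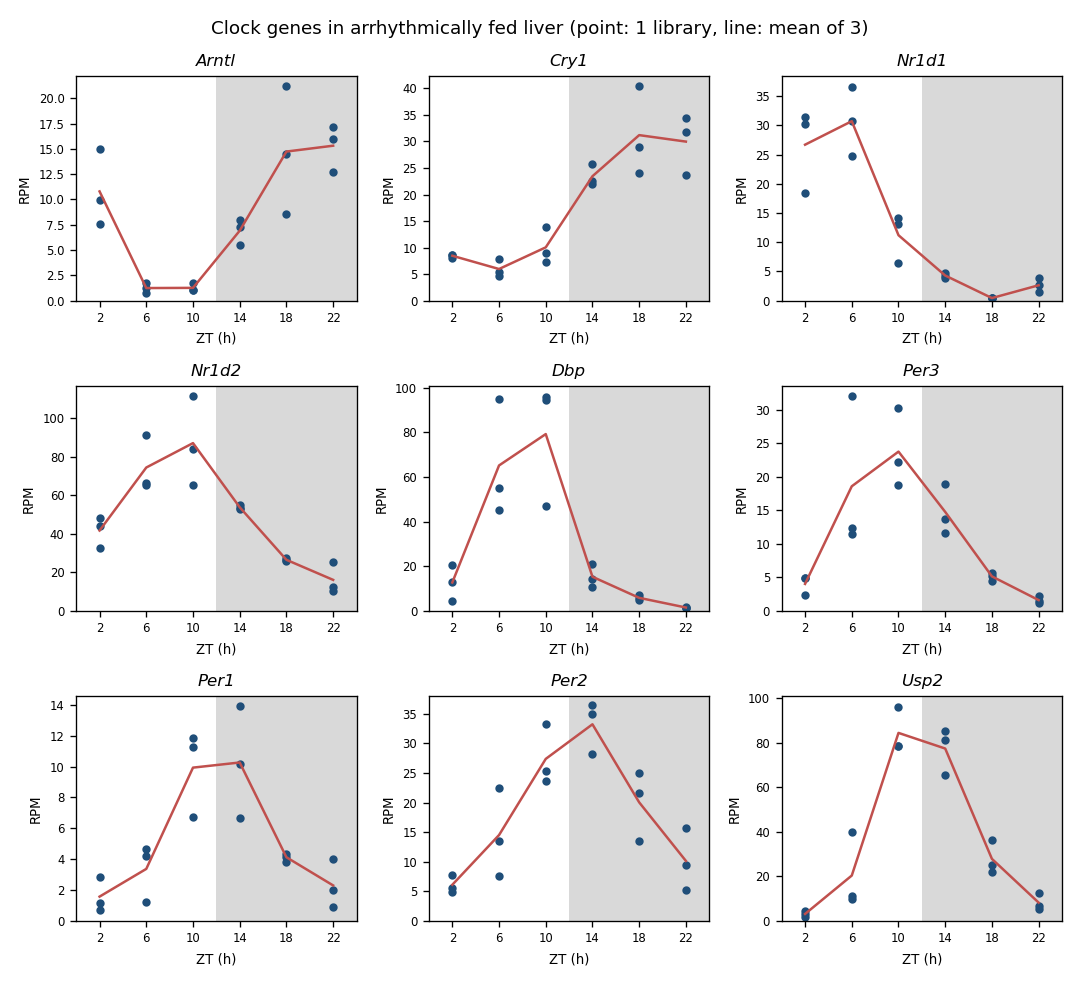
Levels of 9 clock genes (y axis, RPM, from 0) by ZT in hours (x axis) in arrhythmically fed liver; each point is 1 library, the line joins the means of 3, and grey marks the dark phase. Nr1d1 is lowest at ZT 18, where its libraries lie between 0.409 and 0.511 RPM, while Per1, Per2 and Usp2 straddle dusk.

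Clock outputs included Dbp, the gene with the largest amplitude. Dbp (chromosome 7, 45705088 to 45710203), a D-box activator, had 47.2, 96.1 and 94.5 RPM at ZT 10 and 1.29, 1.20 and 1.76 RPM at ZT 22. The fitted curve spanned 34.0-fold with a peak at ZT 8.72 and an amplitude of 2.54 ± 0.17 (limma adjusted p = 2.75e-07), above that of every other gene tested, and the night minus day difference was -2.74 ± 0.24. Its relative Tef had an amplitude of 1.05 ± 0.08 and a peak at ZT 10.7. Usp2, a deubiquitinase gene, had 78.6, 96.4 and 78.5 RPM at ZT 10 and 65.6, 81.2 and 85.5 at ZT 14, against 1.74, 2.95 and 4.39 at ZT 2, so its curve spanned 25.1-fold with no called night minus day difference (0.61 ± 0.24, limma adjusted p = 0.221). Noct, a circadian phosphatase of nicotinamide dinucleotides, peaked at ZT 12.2 (1.54 ± 0.17), the cell cycle kinase gene Wee1 at ZT 12.1 (1.18 ± 0.12) and Por, the reductase that supplies electrons to cytochromes P450, at ZT 13.2 (1.08 ± 0.06). Nampt, the rate-limiting enzyme of NAD salvage, peaked at ZT 13.5 (0.56 ± 0.10) and the glycogen synthase gene Gys2 at ZT 11.7 (0.47 ± 0.06).

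Clock peaks, like those of other rhythmic genes, mostly fell earlier under arrhythmic feeding than in the other feeding patterns. Of the 24 clock genes rhythmic in all 3 patterns, 18 peaked earlier than under night feeding (median shift -0.89 h, range -2.54 to 2.08 h). All 24 peaked earlier than under ad libitum feeding (median -1.35 h, range -2.79 to -0.23 h). Among all genes rhythmic in both arms, 471 of 673 peaked earlier than under night feeding (median -0.83 h). Against ad libitum feeding 544 of 621 did (median -1.39 h), so the shift was not particular to clock genes. Arntl peaked at ZT 20.4 under arrhythmic feeding, ZT 21.4 under night feeding and ZT 22.5 under ad libitum feeding, and Dbp at ZT 8.72, 10 and 10.6 in the same order. Clock genes share their libraries and move together, so these counts are descriptions. For the rhythm itself (cosine and sine terms between arms) limma called 581 of 12374 genes (4.70%) between arrhythmic and night feeding, 4 clock genes among them (Dbp, Tef, Bhlhe41 and Gys2, limma adjusted p = 0.0115, 0.0128, 0.00323 and 0.00207, each with a lower amplitude under arrhythmic feeding). Between arrhythmic and ad libitum feeding limma called 6 genes (0.0485%), with 751 at an unadjusted p under 0.05, 5 by edgeR and 70 by DESeq2. Dbp, Nfil3, Fasn, Casp6 and Fam89a are among the 6, and 3 of the 6 remained without the 3 libraries that stand apart. Leaving out replicate number 1, 2 or 3 in every group left 1, 0 and 0.

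**Figure D3:**
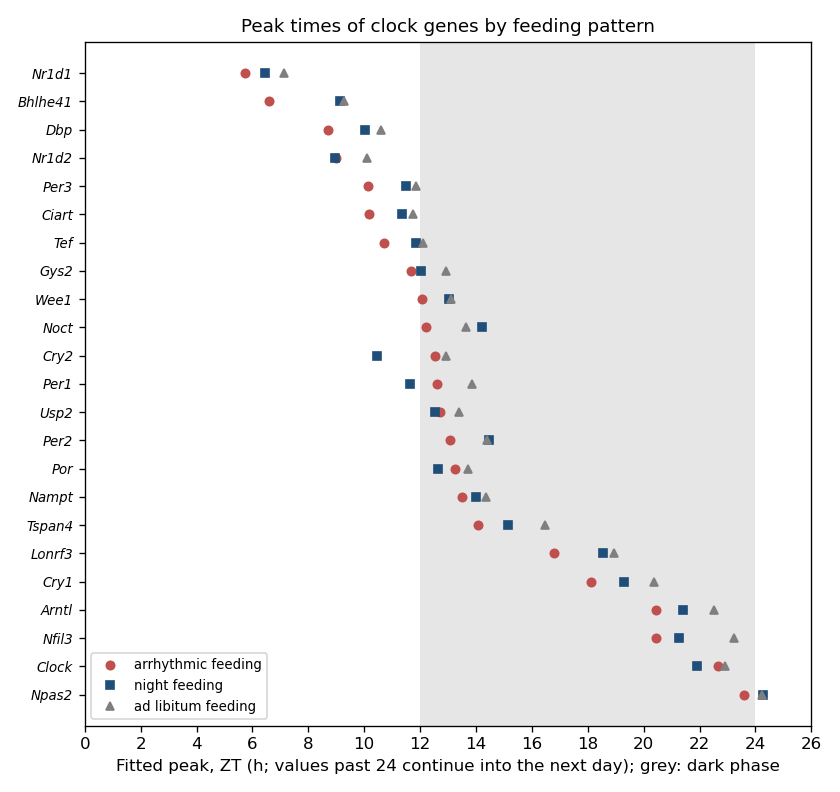
Fitted peak (x axis, ZT in hours) of 23 of the clock genes rhythmic under all 3 feeding patterns, ordered from early to late, with arrhythmic feeding as red circles, night feeding as blue squares and ad libitum feeding as grey triangles. The circle lies left of the triangle in 23 of 23 genes and left of the square in 17.

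Heat shock chaperone genes were higher at night. Of 23 tested, 14 had a rhythm (8.03% of all genes did). Of these 13 peaked in the dark phase, against 550 of the 994 rhythmic genes of the whole set. At night 12 of the 23 were higher and 0 lower (1.28% and 1.06% of all genes were), 9 and 0 without the 3 libraries that stand apart. Fits without replicate number 1, 2 or 3 gave 6 to 7 rhythmic and 3 to 6 higher at night. Over all genes such fits gave 232 to 461 rhythmic, against 994 in the main fit. The median night minus day difference of the list was 0.34, against 0.00 over all genes. Hsp90aa1, the inducible cytosolic HSP90 (chromosome 12, 110690605 to 110702728), had 342, 528 and 665 RPM as lowest, median and highest at night, against 265, 317 and 354 RPM by day, where 1 night library reached into the day range. It averaged 517 ± 103 RPM at night and 308 ± 29.0 RPM by day (SD, n = 9 each). Night exceeded day by 0.72 ± 0.09 on the log2 scale (limma adjusted p = 0.000345). Hsph1, a nucleotide exchange factor for HSP70, had 58.0, 69.2 and 48.2 RPM at ZT 14 and 22.3, 20.8 and 19.6 RPM at ZT 6, and peaked at ZT 15.9 (amplitude 0.61 ± 0.07). Dnajb1, an HSP70 cochaperone, was higher at night by 0.66 ± 0.09 and Hspa8, the constitutive HSP70, by 0.46 ± 0.09. Stip1, which links HSP70 to HSP90, did not overlap, with 27.6 to 39.4 RPM at night, against 20.6 to 26.8 RPM by day. The near-identical inducible HSP70 genes Hspa1a and Hspa1b, whose reads counting may split, had levels of 4.55 ± 1.27 and 26.7 ± 3.45 RPM at ZT 14 (SD, n = 3), against 0.339 ± 0.122 and 4.91 ± 1.70 RPM at ZT 6. The promoter of Hsph1 (chr5:149636287-149636586, minus strand, RefSeq, GRCm38.p6, layout as above) is shown as a member with a match to the heat shock element, in capitals. The element is the triplets GAA, TTC and GAA with 2 free bases between neighbours. In Hsph1 the match is on the opposite strand, so the printed strand reads TTC, GAA and TTC. Matches lie in 0.603% of all promoters in the table and in 0.579% of those of tested genes. Among rhythmic genes they lie in 7 of 753 promoters (0.930%). By peak time, in the 6 bins used above, they lie in 1 of 110, 1 of 99, 0 of 137, 5 of 177, 0 of 80 and 0 of 150. The 5 at ZT 12 to 16 include the chaperone genes Hsph1, Hspe1 and Chordc1 of this same list.
Hsph1: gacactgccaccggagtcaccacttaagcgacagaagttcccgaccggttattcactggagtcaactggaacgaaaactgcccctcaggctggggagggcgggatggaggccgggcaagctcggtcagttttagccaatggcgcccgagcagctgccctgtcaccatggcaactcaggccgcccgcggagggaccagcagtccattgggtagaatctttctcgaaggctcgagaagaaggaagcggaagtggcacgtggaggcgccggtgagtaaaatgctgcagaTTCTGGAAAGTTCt

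The same chaperones swung more under night feeding. The median amplitude of the 23 genes was 0.28 under arrhythmic feeding, 0.72 under night feeding and 0.26 under ad libitum feeding. Of the 23, 12 differed in rhythm from night feeding (4.70% of all genes did) and 0 from ad libitum feeding (0.0485% of all genes did). Hsph1 had an amplitude of 0.61 under arrhythmic and 1.5 under night feeding (adjusted p = 0.00737) and Hsp90aa1 0.50 and 1.26 (adjusted p = 0.00112, limma). In night-fed liver without Bmal1, where 666 genes (5.38%) were rhythmic, 14 of the 23 were, with a median amplitude of 0.55, whereas 5 of the 27 clock genes were. Libraries without Bmal1 held 2.18 to 12.6 M reads, with reads in 11647 to 15223 genes. Under arrhythmic feeding these were 7.09 to 11.8 M and 15411 to 15681, and the part of depth in the counts without Bmal1 was not tested.

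Cirbp, a cold-inducible RNA-binding protein, ran opposite to the chaperones. Its level was 3.65, 6.27 and 9.34 RPM (lowest, median, highest) at night, against 9.08, 11.3 and 16.2 RPM by day, a log2 difference of -0.97 ± 0.13 (limma adjusted p = 0.00041) with a peak at ZT 4.13. The trough of 4.04, 4.73 and 3.65 RPM at ZT 14 fell at the time of the Hsph1 and Dnajb1 maxima. Rbm3, the other well known cold-inducible gene, had an amplitude of 0.30 ± 0.12 that was not called (limma adjusted p = 0.228), though it was called without the 3 libraries that stand apart (0.46, adjusted p = 0.0335, limma) and without ZT 22 replicate 2 alone (0.40, adjusted p = 0.0471), and the splicing factor gene Srsf5 had a rhythm with a peak at ZT 1.13 (0.50 ± 0.10).

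Glucocorticoid-induced genes also stood higher at night. Of 14 tested, 6 were rhythmic, against 8.03% of all genes. Per1, already counted above as a clock gene, is among the 6. All 6 peaked in the dark phase, against 550 of the 994 rhythmic genes of the whole set. At night 5 were higher and 0 lower, against 1.28% and 1.06% of all genes (4 and 0 without the 3 libraries that stand apart). Cdkn1a (chromosome 17, 29090976 to 29100727), a cell cycle inhibitor gene, had the largest night minus day difference of all genes tested, 2.62 ± 0.27 (limma adjusted p = 3.38e-05), with 18.9, 29.9 and 86.4 RPM as lowest, median and highest at night, against 2.14, 5.46 and 16 RPM by day. Tsc22d3, which encodes the anti-inflammatory protein GILZ, had 139, 182 and 160 RPM at ZT 14 and 36.3, 42.7 and 30.6 RPM at ZT 2. It was higher at night by 1.03 ± 0.14 (limma adjusted p = 0.000561) with a peak at ZT 15.2. The transcription factor gene Zbtb16 rose at night by 1.63 ± 0.31 and Ddit4, an inhibitor of mTORC1 signalling, by 0.91 ± 0.13. Fkbp5, a cochaperone of the glucocorticoid receptor, had a rhythm of amplitude 1.16 ± 0.16 with a peak at ZT 14, and its night minus day call (0.91 ± 0.23, limma adjusted p = 0.0465) was lost in 13 of 18 fits that left out 1 library.

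**Figure D4:**
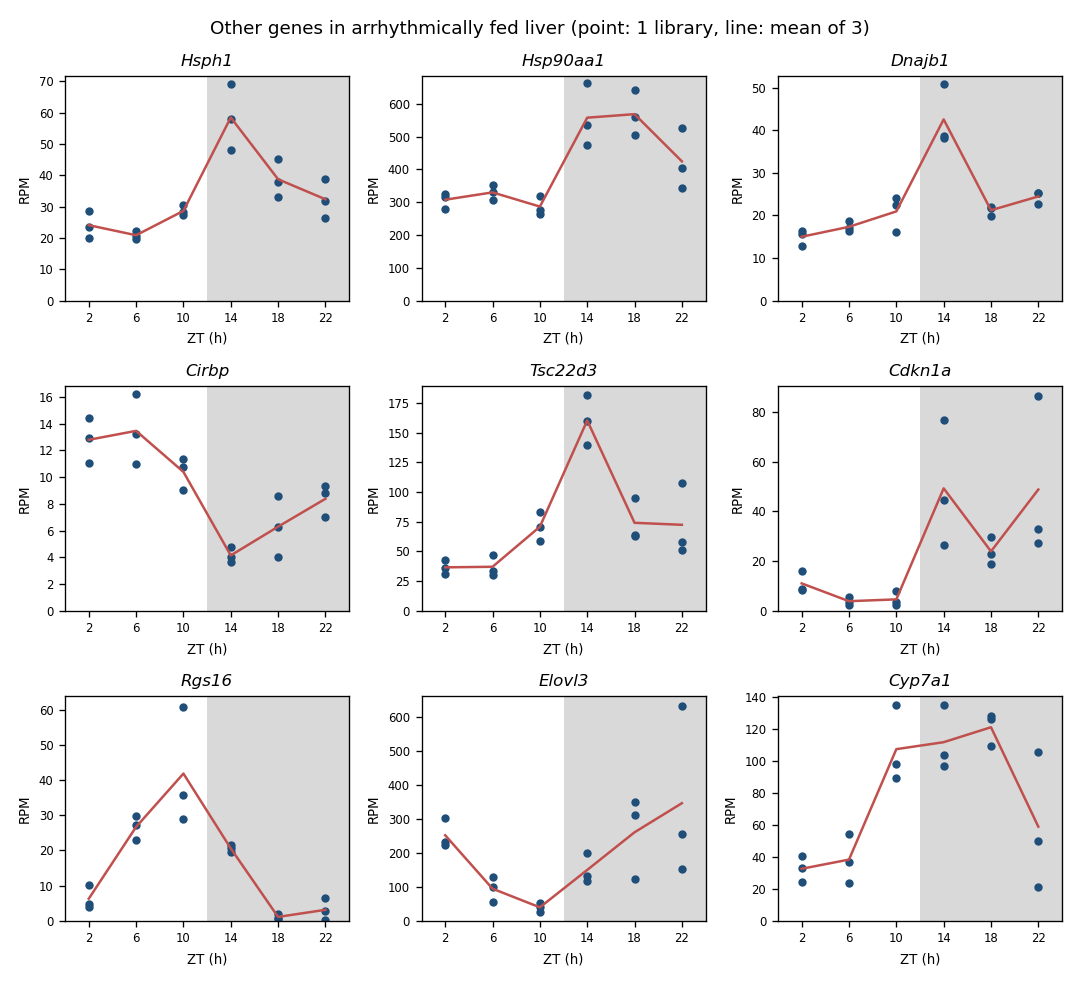
Levels of 9 genes outside the clock (y axis, RPM, from 0) by ZT in hours (x axis), drawn as for the clock genes: chaperones, Cirbp, glucocorticoid targets, Rgs16, Elovl3 and Cyp7a1. Hsph1, Dnajb1 and Tsc22d3 are highest at ZT 14 while Cirbp is lowest there.

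Several genes that respond to meals had a rhythm under arrhythmic feeding. Of 13 feeding-induced genes 7 were rhythmic (8.03% of all genes were), and 1 was called between night and day (2.34% of all genes were). That one, Rgs16, a G-protein regulator gene (chromosome 1, 153740349 to 153745468), had 60.9, 35.8 and 28.9 RPM at ZT 10, against 1.77, 0.895 and 0.532 RPM at ZT 18. It was lower at night by -2.15 ± 0.32 (limma adjusted p = 0.00115), with an amplitude of 2.43 ± 0.22 under arrhythmic, 3.09 under night and 2.27 under ad libitum feeding. Lpin1, a phosphatidate phosphatase gene, had 286, 413 and 535 RPM at ZT 14 and 36.6, 39.6 and 40.2 RPM at ZT 2, a curve of 8.36-fold with a peak at ZT 12.7. Mid1ip1, an activator of fatty acid synthesis, peaked at ZT 8.74 under arrhythmic and ZT 18.2 under night feeding, with amplitudes of 0.44 and 1.14 (adjusted p of the difference 4.95e-09, limma). Ppp1r3c, a glycogen-targeting subunit, peaked at ZT 22 (1.04 ± 0.15) and Id2, an inhibitor of bHLH factors, at ZT 23.5 (0.45 ± 0.07). Of 13 insulin and FOXO fasting genes 1 was rhythmic, the gluconeogenic enzyme gene Pck1 (0.79 ± 0.16, peak at ZT 13.5), against 8.03% of all genes. Under night feeding 10 of them were, against 22% of all genes. The rhythm itself differed between arrhythmic and night feeding in 3 of the 13, against 4.70% of all genes.

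Lipid synthesis genes were rhythmic in part. In the fatty acid list 4 of 19 were rhythmic and 2 were higher and 0 lower at night, against 8.03%, 1.28% and 1.06% of all genes. Fits without 1 library gave 4 to 8 rhythmic and 0 to 3 higher. Elovl3, a fatty acid elongase gene, had 117, 199 and 632 RPM as lowest, median and highest at night, against 25.9, 99.9 and 303 RPM by day, with wide overlap. Its amplitude was 1.35 ± 0.19 with a peak at ZT 21.5, and its night minus day call (1.19 ± 0.26, limma adjusted p = 0.0209) was lost without ZT 10 replicate 3 or ZT 14 replicate 3. Thrsp, a lipogenic regulator gene, peaked at ZT 12.4 under arrhythmic and ZT 16.2 under night feeding, with amplitudes of 1.18 and 1.54 (adjusted p of the difference 0.00126, limma), and Insig2, which retains SREBP in the ER, at ZT 22.5 (0.88 ± 0.10). Fasn, the fatty acid synthase, had an uncalled amplitude of 0.48 ± 0.18 under arrhythmic feeding, against 1.28 under night feeding and 0.93 under ad libitum feeding (adjusted p of the differences 0.000116 and 0.0461). Cholesterol synthesis genes were rhythmic in 6 of 24, 1 was higher and 2 lower at night, and 16 of the 24 differed in rhythm from night feeding, against 4.70% of all genes. Without the 3 libraries that stand apart 10 were rhythmic, 0 higher and 1 lower, Pmvk losing its call. Fits without 1 library gave 6 to 10 rhythmic, 1 to 2 higher and 1 to 6 lower. Mvk, mevalonate kinase, was lower at night by -0.63 ± 0.09 (limma adjusted p = 0.000564) with a peak at ZT 8.07, Hmgcs1 peaked at ZT 2.45 and Msmo1 at ZT 9.67, so members of the pathway did not share a phase.

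Fat oxidation, bile acid and detoxification genes had rhythms in 6 of 27, 7 of 17 and 9 of 25 members, against 8.03% of all genes. At night 2 of the first list were higher (5 without the 3 libraries that stand apart), 3 of the second were lower, and 3 of the third were higher (1 without those libraries), against 1.28% higher and 1.06% lower of all genes. Fits without 1 library gave 2 to 5 lower in the second list and 0 to 2 higher in the third. Without replicate number 1, 2 or 3 the lists had 1 to 5, 0 to 5 and 2 to 3 rhythmic members. Angptl4, an inhibitor of lipoprotein lipase, peaked at ZT 12.6 (0.91 ± 0.14), and Plin5, a lipid droplet protein of oxidative tissues, was higher at night by 0.72 ± 0.12. The acyl-CoA thioesterase gene Acot1, whose close relatives lie beside it, was higher at night by 0.85 ± 0.15, and Acot3 peaked at ZT 12.7 (1.02 ± 0.16). Cyp7a1, the rate-limiting enzyme of bile acid synthesis, had 135, 98.0 and 89.2 RPM at ZT 10, 135, 96.6 and 104 at ZT 14 and 126, 109 and 128 at ZT 18, against 32.8, 24.3 and 40.4 at ZT 2. The curve peaked at ZT 14.6 and its amplitude was 1.08 ± 0.16 (limma adjusted p = 0.000995), and its night minus day difference of 0.79 ± 0.23 was not called (adjusted p = 0.0834). Of the 7 rhythmic bile genes 6 peaked by day, against 444 of the 994 rhythmic genes of the whole set. Slco1b2, a hepatocyte organic anion uptake carrier, did not overlap, with 972, 1577 and 1726 RPM as lowest, median and highest at night, against 1847, 1995 and 2338 RPM by day (-0.46 ± 0.10, limma adjusted p = 0.0204), a call lost without ZT 10 replicate 3 or ZT 14 replicate 3. The sterol transporter subunit Abcg8 was lower at night by -0.61 ± 0.13, its partner Abcg5 peaked at ZT 9.12, and the bile salt uptake carrier Slc10a1 (-0.42 ± 0.09) lost both calls without the 3 libraries that stand apart. Cyp2a5, which has close copies, peaked at ZT 13.3 (1.01 ± 0.18) and the xenobiotic receptor gene Nr1i2 at ZT 13.4 (0.39 ± 0.06). Cyp2b10, a target of the receptor CAR, had a called rhythm (0.69 ± 0.15, peak at ZT 16.8) that was lost without ZT 6 replicate 1, ZT 14 replicate 3, ZT 18 replicate 1 or ZT 18 replicate 2.

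Sugar and amino acid genes were rhythmic in 6 of 18 and 5 of 18 members, against 8.03% of all genes, and fits without 1 library gave 3 to 9 for the amino acid genes. Pfkfb3 and Pfkfb1, which set the level of a glycolytic activator metabolite, peaked at ZT 10.4 (1.05 ± 0.11) and ZT 14.7 (0.70 ± 0.08), and Pfkfb1 was higher at night by 0.63 ± 0.11. Slc2a2, the hepatic glucose transporter, peaked at ZT 9.22 (0.41 ± 0.08). Ugp2, which makes UDP-glucose for glycogen, peaked at ZT 7.57 (0.31 ± 0.06), and the alanine aminotransferase gene Gpt at ZT 13.9 (0.35 ± 0.05). The 5 rhythmic amino acid genes all peaked in the dark phase, against 550 of the 994 rhythmic genes of the whole set. Without the 3 libraries that stand apart 9 amino acid genes were rhythmic. Herpud1, an ER-associated degradation gene, had an amplitude of 0.72 ± 0.06 and a peak at ZT 11.8 under arrhythmic feeding, 0.87 and ZT 11.3 under night feeding and 0.75 and ZT 12.5 under ad libitum feeding. Over the list 4 of 26 ER chaperone and unfolded protein response genes were rhythmic (2 without the 3 libraries that stand apart), and 14 differed in rhythm from night feeding, against 8.03% and 4.70% of all genes. Fits without 1 library gave 3 to 7 rhythmic ER genes. Among targets of the stress factor ATF4 2 of 11 were rhythmic (1 without those 3 libraries, and 1 to 3 without 1 library), among them Atf5 (0.50 ± 0.09, peak at ZT 0.46).

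Translation and growth genes showed no called rhythm. Limma called 0 of 35 ribosome biogenesis genes, 0 of 48 cytosolic ribosomal protein genes and 0 of 12 serum response and immediate early genes, in either test, with largest amplitudes of 0.33, 0.30 and 0.59. Over all genes 8.03% were rhythmic, and fits without 1 library gave at most 1, 2 and 1 in the 3 lists. Under night feeding 13, 9 and 6 of these had a rhythm, against 22% of all genes, and 4, 0 and 2 differed in rhythm between arrhythmic and night feeding, against 4.70% of all genes. The next 3 counts stand against the same 8.03% of all genes. Autophagy and lysosome genes were rhythmic in 3 of 23 (Bnip3, a mitophagy receptor gene, at ZT 13.2 with 0.44 ± 0.06, and the autophagy kinase gene Ulk1 at ZT 10.6 with 0.32 ± 0.06, among them). The 3 rhythmic genes of 18 in the acute phase list were the fibrinogen chains Fga, Fgb and Fgg, with peaks at ZT 0.019, 0.56 and 0.41 and amplitudes of 0.35 ± 0.06, 0.28 ± 0.06 and 0.28 ± 0.06, and the call of Fgb was lost in 6 of 18 fits that left out 1 library and without the 3 that stand apart. Growth hormone and STAT5 genes were rhythmic in 2 of 13, in 4 without the 3 libraries that stand apart, and in 1 to 3 without 1 library.

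**Figure D5:**
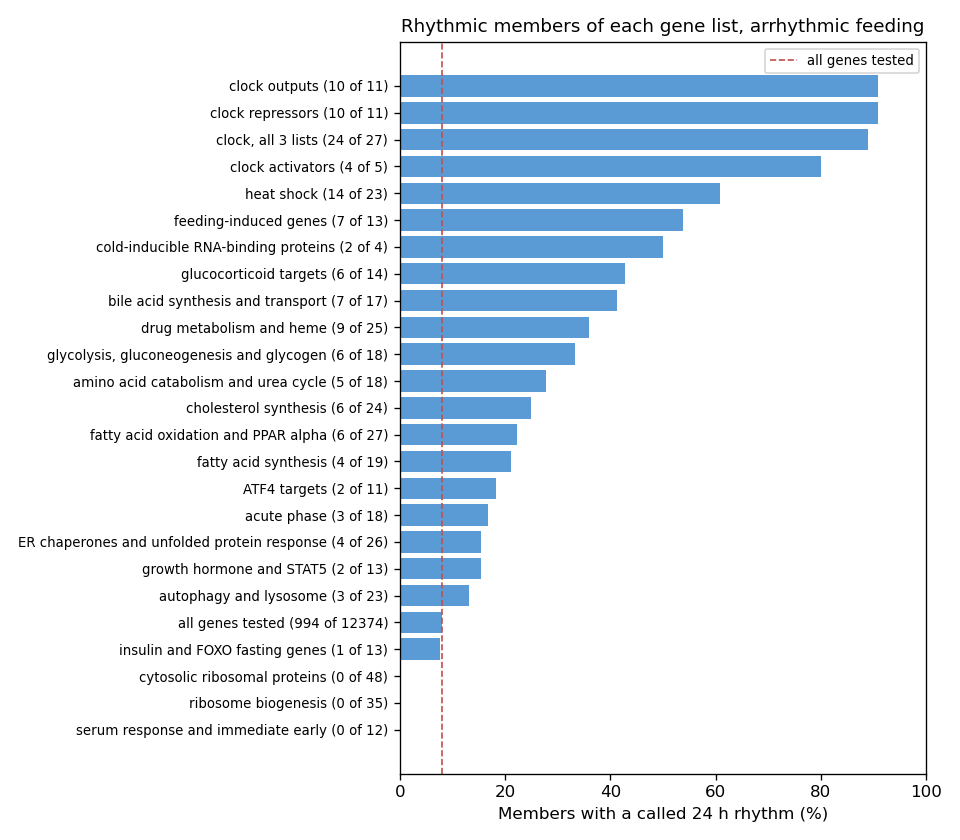
Share of the tested members of each gene list with a called 24 h rhythm under arrhythmic feeding (x axis, percent, from 0), with the counts beside each name and a dashed line at the share among all genes tested. Clock lists reach 10 of 11, heat shock genes 14 of 23, and ribosomal protein genes 0 of 48.

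Among the genes with the largest effects outside these lists, Chka, a choline kinase gene, was higher at night by 1.43 ± 0.19 (limma adjusted p = 0.000516) with 30.4, 51.2 and 132 RPM as lowest, median and highest at night, against 9.87, 17.4 and 56.2 RPM by day, and peaked at ZT 20.6. Upp2, a uridine phosphorylase gene of liver, had 493, 675 and 727 RPM at ZT 10, against 57.5, 63.2 and 91.8 RPM at ZT 2, an 8-fold curve with a night minus day difference of 0.00 ± 0.21. The secreted growth factor gene Nrg4 peaked at ZT 12.4 (1.34 ± 0.14) and the proprotein convertase gene Pcsk4 at ZT 9.98 (1.33 ± 0.17). Syt1, a vesicle calcium sensor gene, was lower at night by -1.05 ± 0.15, the RNA helicase gene Ddx60 by -0.89 ± 0.13 with no overlap, Eepd1 by -0.87 ± 0.12 and the ER immunophilin gene Fkbp11 by -0.82 ± 0.15.

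The rhythms of arrhythmically fed liver were in large part also called under the other patterns. Night feeding had 2724 rhythmic genes (22%), ad libitum feeding 2063 (16.7%). Of the 994 genes, 673 were also rhythmic under night feeding, which is 67.7% of the arrhythmic and 24.7% of the night-fed set, with the fitted peak within 4 h in 628. Under ad libitum feeding 621 were rhythmic (62.5% and 30.1%), 591 within 4 h. The 581 genes with a different rhythm from night feeding had a lower amplitude under arrhythmic feeding in 542 cases, and 143 of the 581 were rhythmic under arrhythmic feeding. A different night minus day difference from night feeding was found in 334 genes (2.7%), of which 33 were called between night and day under arrhythmic feeding. Against ad libitum feeding limma called 0 genes for that difference, with 402 at an unadjusted p under 0.05. Night-fed libraries were shallower, with a median of 5.76 M reads, against 8.74 M under arrhythmic feeding, and the part of depth in these counts was not tested.

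In arrhythmically fed mice given AZD8055 the clock genes were again rhythmic in 24 of 27 after dawn injection and in 24 of 27 after dusk injection, with 2604 (21.0%) and 2401 (19.4%) rhythmic genes over all. Nr1d1 peaked at ZT 5.74 without injection, ZT 2.52 after dawn and ZT 6.98 after dusk injection, and Arntl at ZT 20.4, 18.3 and 20.8. Of the 994 genes, 527 were also rhythmic after dawn injection, with peaks within 4 h in 250 of them and a median peak 3.35 h later without injection, and 558 after dusk injection, with peaks within 4 h in 458. The injection is part of these arms, and no test of the difference is given here.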

How the data were processed

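The time series were read from a table of gene-level signal values that the authors deposited, which are read counts divided by a factor for each library. Whole reads were recovered from it (tolerance 0.01 read). Reads came from a 3' QuantSeq kit per the labels' protocols and, per the submitters' processing notes, were aligned to mm10 with STAR 2.7.3a. The sources used here do not name a read counter or an annotation. Of 234 columns 108 were used, and 126 were not used. A second table, of another experiment, was not used here. Recovered reads were scaled to RPM with TMM factors, and the genes tested averaged 1 RPM or more over the arrhythmic, night-fed and ad libitum libraries (12374 of 15907; 3533 were not). The test was limma 3.58.1 (R 4.3.3) with a mean-dependent prior on log2(RPM + 0.5), so fold changes of low genes are understated. It was fitted with a mean per time. Night minus day, the 24 h cosine and sine terms and their differences between arms were contrasts, adjusted by Benjamini-Hochberg over all genes tested at 0.05. An amplitude and its SE come from the 18 libraries of an arm. The fits were tested on simulated data.

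edgeR 4.0.16 and DESeq2 1.42.0 on the recovered counts, other scalings, filters and pseudocounts, a replicate block and left-out libraries were the alternatives. Leaving out the 3 libraries that stand apart and the deposited scaling were added after seeing the data. Genes named are all clock genes, those with the largest night minus day differences (at least 5 RPM) and amplitudes, and up to 5 of each list by p, less gene models with no known role; Casp6, Fam89a and Fasn were picked once their values were known. Results of some genes that the rule names are not reported here. Members and gene lists alike were chosen with earlier results of these data known. Some genes stand in more than 1 list (445 entries, 436 distinct genes). Promoters and their motifs were read from the RefSeq table of GRCm38.p6, and gene positions from GENCODE vM21 (GRCm38).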

Additional observations from a re-analysis of the deposited data

Results flagged for a closer look

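Among 178 groups of 9 libraries (89 genes, night and day), 8 had 1 library far from the others, where chance gives about 1 in 20 groups. By day these were Cry1 at ZT 10 replicate 1 (13.9 RPM), Cdkn1a at ZT 2 replicate 2 (16 RPM), Fkbp5 at ZT 10 replicate 1 (36.1 RPM), Zbtb16 at ZT 10 replicate 2 (9.98 RPM) and Lpin1 at ZT 10 replicate 2 (199 RPM). At night they were Elovl3 and Fga at ZT 22 replicate 2 (632 and 1338 RPM) and Cyp2b10 at ZT 14 replicate 3 (72 RPM). The groups hold 3 times of day each, so a high library can be a time as well as an animal.

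The rhythm differed between arrhythmic and ad libitum feeding in 6 genes by the test of the difference (limma adjusted p). Dbp and Casp6 had 0.0102 each, and Nfil3, Fam89a and Fasn 0.0461 each. Against night feeding the adjusted p was 0.0115 for Dbp, 0.00323 for Bhlhe41, 0.0128 for Tef and 0.00207 for Gys2 among clock genes. Among chaperones it was 0.00737 for Hsph1, 0.00112 for Hsp90aa1, 0.00759 for Hspa8 and 0.0066 for Stip1. Among lipid and sterol genes it was 4.95e-09 for Mid1ip1, 0.00126 for Thrsp, 0.000116 for Fasn, 0.0406 for Mvk, 0.00472 for Pmvk and 0.000605 for Msmo1. For Bnip3 it was 0.0136, for Fgg 0.0476 and for Casp6 0.0021. Both comparisons use the same arrhythmically fed libraries.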

How the results depend on the processing

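Among the 89 genes followed, no called night minus day difference changed sign under any alternative run. No called rhythm moved its peak nearer to the opposite phase than to its own in the main fit. Reversal was not followed for results that were not called in the main fit. Of 84 rhythms among the 89 genes followed 81 kept their call in every fit without 1 library and 50 in every fit without 1 replicate number. Of 46 night minus day calls among them 39 and 13 did. These genes were named in part by their p or effect size in the main fit. Over all genes, each fit without 1 library kept 731 to 890 of the 994 rhythms and 170 to 248 of the 290 night minus day calls. The night minus day count of 290 was 153 without the 3 libraries that stand apart, 449 by DESeq2, and 100 when night and day were each fitted as 1 mean, which leaves the change within each phase in the residual spread; 23 of the 46 calls were lost there. Leaving out 1 library gave 171 to 313 night minus day genes, 758 to 1119 rhythmic genes and 332 to 592 genes differing among times. Leaving out a replicate number, which is 1 library at each time, gave 36 to 96, 232 to 461 and 83 to 187. DESeq2 called 927 genes that differed among times. The 12 h component was called in 13 genes by DESeq2 and in 0 to 1 without 1 library. The difference in rhythm from night feeding was called in 37 to 270 genes without a replicate number, and the night minus day difference from night feeding in 28 to 165. The difference in rhythm from ad libitum feeding was called in 3 genes without the 3 libraries, 70 by DESeq2, 3 at a pseudocount of 0.1 and 0 to 1 without a replicate number. The cause of these moves was not tested, and fits that leave libraries out also hold fewer of them. Within the arrhythmic arm replicate numbers did not pair the libraries. Deviations of same-numbered libraries had a median correlation of -0.004, and 8 of 45 pairs were above 0.1. Only 7 of 18 libraries were closest to their own number. The night-fed and ad libitum arms were not checked in this way. In night-fed libraries of replicate 1, 16.9% to 21.1% of reads were mitochondrial, against 13.3% to 15.2% in replicates 2 and 3. With the replicate block, night minus day gave 284 genes, rhythm 977 and any time 459. Differences between arms rose with it. The rhythm difference from night feeding went from 581 to 851 genes and that from ad libitum feeding from 6 to 37. The night minus day difference from night feeding went from 334 to 510. The main counts between arms take no account of replicate number, and its part in them was not tested. A rhythm was called in 4.60% of genes under 5 RPM and in 12.4% of those above 100 RPM; the part of depth in this was not tested.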
